A study of Saccharomyces cerevisiae S288C with 18 samples.

Results

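Bovine lactoferrin (LF), an iron-binding glycoprotein of milk and tears, was given alone to cultures of the budding yeast Saccharomyces cerevisiae, and the polyadenylated RNA was sequenced. The experiment holds 6 of the 18 libraries of the series, taken by their labels: 3 named LF only and 3 named as their matched control, with replicate numbers 1, 2 and 3 in both groups. The LF cultures received 2 µg/mL LF for 50 min, and the control cultures received no drug and were incubated for the same 50 min. All cultures were wild type S288C cells growing in RPMI medium, and no group carried a mutation. The series asked how LF strengthens amphotericin B (AMB), an antifungal that binds the membrane sterol ergosterol. Its other 12 libraries hold cultures given 0.03 µg/mL AMB for 60 min, cultures given AMB-LF (LF at 2 µg/mL beside AMB at 0.03 µg/mL, 50 min), and a matched untreated control for each. The LF experiment asks what the protein does to the transcriptome when no AMB is present. The 50 min of the LF cultures was set to the harvest time of AMB-LF, so the 6 libraries give 1 dose at 1 time in 1 strain.

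Yeast keeps its metal content steady mostly by adjusting transcription. When zinc is short, the activator Zap1p turns on the plasma membrane zinc transporters, the release of zinc from the vacuole, replacement enzymes that need less zinc, and its own gene, through a palindromic element in the promoters of its targets. When iron is short, Aft1p and its paralog Aft2p move to the nucleus and turn on the cell-wall proteins, siderophore transporters, surface reductases and the ferroxidase-permease pair that bring iron in, through a short core element. Siderophores are small iron chelators made by microbes, which yeast does not make but can take up.

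The LF libraries held 23925944 to 28526820 counted reads and the control libraries 25778540 to 30172836, against 6799569 to 9696467 in the 12 other libraries, which were sequenced on another instrument. The scaling factors of the 6 LF and control libraries lay between 0.97 and 1.03. The replicates were done on different days, as the study states. Libraries with the same number deviated together from their group means (r = 0.881 for number 1, 0.767 for number 2 and 0.943 for number 3, across 5445 genes of the same 6 libraries). Each number was therefore treated as a pair of 1 LF and 1 control library. Levels are given in CPM, read counts scaled to a common library size, and each log2 fold change is LF over control within pairs, with its standard error (SE).

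The elements that the zinc and iron genes described below carry were read from the R64 assembly of RefSeq, in the 500 bases before each coding start, and are shown here because several of the genes with the widest differences have a match. The Zap1p element was searched as ACCTTNAAGGT and the Aft1p core as TGCACCC, both on both strands. The exact zinc element stood before 9 of 6025 genes (0.149%), and a match with up to 1 mismatch stood before 118 (1.96%). On the zinc list of 18 genes it was found before 3 (16.7%) and 11 (61.1%). The Aft1p core stood before 140 of the 6025 genes (2.32%), and before 15 of the 16 genes of the iron uptake list (93.8%) and 4 of the 10 genes of the iron storage and sparing list (40%). Such a match is a string of letters and not a measured binding site, and genes without one are not thereby shown to lack a site. In the following stretches, each written 5′ to 3′ on the strand of its gene, the capitals mark 1 match to the element. For ZRT1, RTC4 and ZRG17 the match is exact, and for ZPS1 and ZAP1 it has 1 mismatch. The ZPS1 stretch opens with another match of 1 mismatch, left in lower case. For HMX1 the core lies on the other strand and reads as its reverse complement.
ZRT1 (chrVII:20759-20799, plus strand): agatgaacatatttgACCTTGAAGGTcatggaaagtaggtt
RTC4 (chrXIV:169655-169695, minus strand): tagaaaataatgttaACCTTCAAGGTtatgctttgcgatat
ZRG17 (chrXIV:699490-699530, minus strand): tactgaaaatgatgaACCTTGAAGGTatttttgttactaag
ZPS1 (chrXV:34329-34369, plus strand): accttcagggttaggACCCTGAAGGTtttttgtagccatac
ZAP1 (chrX:333192-333232, minus strand): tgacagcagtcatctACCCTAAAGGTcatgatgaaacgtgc
FIT2 (chrXV:1059250-1059286, plus strand): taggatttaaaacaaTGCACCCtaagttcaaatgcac
FET3 (chrXIII:388556-388592, plus strand): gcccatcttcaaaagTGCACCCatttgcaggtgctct
TIS11 (chrXII:416886-416922, minus strand): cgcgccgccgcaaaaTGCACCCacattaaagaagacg
HMX1 (chrXII:554107-554143, minus strand): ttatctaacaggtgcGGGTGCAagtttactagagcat

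With LF alone, no gene passed the test. The widest differences lay in genes for zinc acquisition, which were lower with LF, and in genes for iron uptake. Most of the iron uptake genes were higher in only 2 of the 3 pairs. Of 5445 genes tested, 0 were higher (0%) and 0 were lower (0%) at an adjusted p under 0.05 in the quasi-likelihood test of edgeR, with the pair as a block and p-values adjusted by Benjamini-Hochberg. The smallest adjusted p of that test was 0.309, for ADH4. At an unadjusted p under 0.05, 235 genes were higher (4.32%) and 183 lower (3.36%), 418 in all. With library size as the only scaling these were 144 higher and 281 lower. The likelihood ratio test of edgeR, which does not widen its errors for uncertain spread, called 7 genes higher (0.129%) and 13 lower (0.239%) after the same adjustment, DESeq2 called 1, and edgeR's quasi-likelihood test without the pair called 0. The log2 ratio had 1 sign in all 3 pairs for 843 genes that were higher (15.5%) and 744 that were lower (13.7%). Leaving out 1 pair changed the counts of the quasi-likelihood test. It called 187 genes without pair 1, where the fit gave all genes of a level the same spread, 31 without pair 2, of which 10 were iron uptake genes, and 2 without pair 3, ZRT1 and ZRT2.

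The differences were small for nearly all genes. The median log2 fold change was 0.0018, 85.3% of genes had a fold change of less than 0.1 in either direction on the log2 scale, 9 exceeded 0.5 and 3 exceeded 1. The median SE was 0.0524 log2 units, so that the median 95% interval reached 0.117 to either side of the estimate. For 99.2% of genes the interval lay within 0.5 log2 units of no difference, and for 99.8% within 1. Of the 43 genes whose interval passed the narrower bound, 22 were zinc, iron uptake or iron storage genes of the lists described next. The biological coefficient of variation was 0.0557 with the pairs in the fit, against 0.179 without them. The smallest p that an exact test on the signs of 3 pairs can give is 0.25, so no single gene was tested that way.

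ZRT1, ZPS1 and ZAP1 were the 3 genes that differed by more than 1 log2 unit, and all 3 were lower with LF. They belong to the zinc response: ZRT1 encodes the high-affinity zinc transporter of the plasma membrane, ZPS1 a cell-surface protein made in low zinc, and ZAP1 the activator of both. This list and those below were chosen with earlier results of these data known, so their shares are a description and not a test. On the zinc list of 18 genes, 16 had a fold change below 0. At an unadjusted p under 0.05, 10 were lower (against 3.36% of all genes) and 1 was higher. In all 3 pairs 8 were lower, against 13.7% of all genes. The list's median log2 fold change was -0.264, against 0.0018 for all genes. The list's pair medians were -0.11, -0.39 and -0.127 for pairs 1, 2 and 3.

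ZRT1 (chromosome VII, 20978 to 22108) had 143, 599 and 3402 CPM in the LF libraries of pairs 1, 2 and 3, against 708, 4442 and 4222 CPM in their control libraries. Each LF library was below its own control, but the groups overlapped because the level differed widely between days. The log2 ratios within pairs were -2.31, -2.89 and -0.31, and the fitted log2 fold change was -1.86 (SE 0.389, unadjusted p = 0.000776 by edgeR's quasi-likelihood test).

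ZPS1 (chromosome XV, 34658 to 35407) had 30.0, 50.9 and 1457 CPM with LF, against 166, 3097 and 2333 CPM in control. Its log2 fold change of -2.88 was the largest in size among the genes tested, and its SE was 0.815, with pair ratios between -5.92 and -0.68. ZAP1 (chromosome X, 330431 to 333073) had 33.2, 31.1 and 186 CPM with LF, against 65.5, 191 and 221 CPM in control, and a log2 fold change of -1.22 (SE 0.332). For all 3 genes pair 2 gave the widest ratio and pair 3 the narrowest. With 1 pair left out the log2 fold change lay between -2.60 (without pair 3) and -1.30 (without pair 2) for ZRT1, between -4.25 and -1.50 for ZPS1 and between -1.83 and -0.56 for ZAP1, with the ends from the same pairs. Without pair 2, ZAP1 thus differed by less than 1 log2 unit.

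The vacuolar and low-affinity transporters lay in the same direction. ZRT3, which exports zinc from the vacuole, had 153, 175 and 638 CPM with LF, against 194, 676 and 702 CPM in control (log2 fold change -0.80). ZRT2, the low-affinity plasma membrane transporter, had 112, 172 and 317 CPM with LF, against 209, 312 and 280 CPM in control (-0.52), so pair 3 ran the other way. RTC4, a gene of unclear function with the exact element in its promoter, had 32.1, 30.6 and 96.3 CPM with LF, against 39.6, 119 and 116 CPM in control (-0.83). ZRG17, a subunit of the zinc transporter of the endoplasmic reticulum, was lower in all 3 pairs by a smaller amount (-0.17), while its partner MSC2 had -0.054. COT1, which loads zinc into the vacuole, was the 1 list member higher at an unadjusted p under 0.05 (0.20), and ZRC1, which does the same, had -0.061.

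ADH4 (chromosome VII, 15159 to 16307), an alcohol dehydrogenase made when zinc is short, had 95.1, 96.4 and 107 CPM in the LF libraries, against 114, 135 and 177 CPM in control. These groups did not overlap, but the share of all genes with groups that do not overlap was not counted. The pair ratios were -0.27, -0.48 and -0.73, and the log2 fold change was -0.50 (SE 0.0738). ADH4 was the gene with the smallest p, and the 1 gene called by DESeq2, but its Benjamini-Hochberg adjusted p was 0.309 in the quasi-likelihood test of edgeR and lay between 1.88e-24 and 1 over 11 alternatives. VEL1, a nearby gene of unknown function on the same chromosome, had 4.88, 7.68 and 9.37 CPM with LF, against 4.75, 16.8 and 15.5 CPM in control (-0.71), with a log2 ratio of 0.037 in pair 1. Its paralog YOR387C had -0.36 and was lower in all 3 pairs.

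The genes of 2 zinc-binding alcohol dehydrogenases lay on the other side, with neither called. ADH1, the main fermentative alcohol dehydrogenase, whose gene Zap1p is known to repress in low zinc, had 9442, 6737 and 7372 CPM with LF, against 8724, 4347 and 6216 CPM in control (log2 fold change 0.33, SE 0.105). ADH3, its mitochondrial counterpart, chosen after its values were seen because Zap1p represses it too, had 741, 721 and 586 CPM with LF, against 710, 507 and 503 CPM in control (0.26, SE 0.0822). Both were higher in every pair, most in pair 2, the pair with the widest ratios of ZPS1 and ZRT1, and the groups overlapped for both. Of the 75-base windows of the ADH1 coding sequence, 11.8% also occur elsewhere in the genome, so its reads may be split with its relatives.

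**Figure D1:**
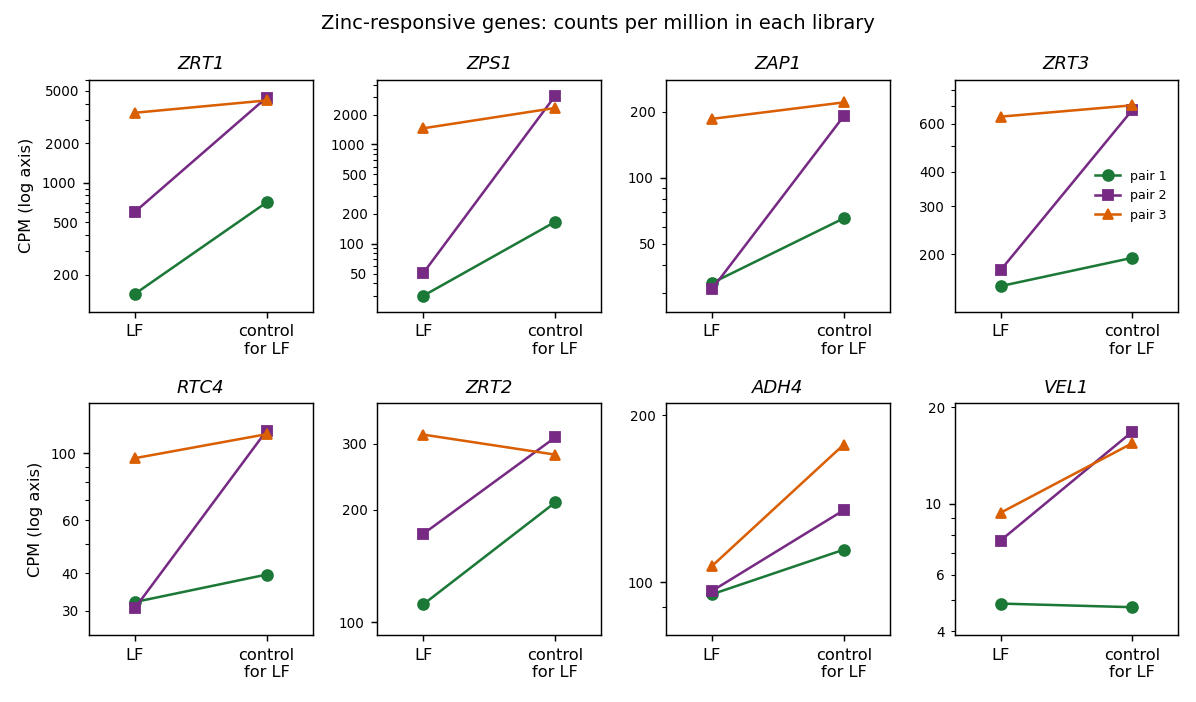
CPM on a log axis for 8 zinc-responsive genes, with the LF library to the left and its control to the right, and a line joining the libraries of each pair. ADH4 is the only one of the 8 in which all LF libraries lie below all control libraries, a trait not counted over all genes. ZRT1 spans 143 to 3402 CPM within the LF group.

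Iron uptake genes were higher with LF in pairs 1 and 3, but most were lower in pair 2. Of the 16 genes, 15 had a fold change above 0. At an unadjusted p under 0.05, 10 were higher (against 4.32% of all genes) and 0 were lower. In all 3 pairs 5 were higher, against 15.5% of all genes. The list's median log2 fold change was 0.313. By pair the median was 0.711 in pair 1, -0.0932 in pair 2 and 0.211 in pair 3, and 16, 5 and 16 of the 16 genes were above 0. None was called after adjustment. Without pair 1 the median was 0.0779, without pair 2 it was 0.447 and without pair 3 it was 0.355. In the same test of edgeR on the remaining 4 libraries, 10 of the 16 passed at an adjusted p under 0.05 without pair 2. Pair 2 held the lowest ratio in all 16 genes, and that fit called 21 higher and 10 lower of 5471 genes. Without pair 1 the test called 1 of the 16, FET4, as lower, and without pair 3 it called ZRT1 and ZRT2 alone.

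FIT2 and FIT3, which encode cell-wall mannoproteins that hold siderophore-bound iron, had the largest fold changes of the list. FIT2 (chromosome XV, 1059531 to 1059992) had 1791, 2429 and 2688 CPM with LF, against 591, 2676 and 1755 CPM in control. The groups overlapped, since the control library of pair 2 was above 2 of the LF libraries. The pair ratios were 1.60, -0.14 and 0.62 and the log2 fold change was 0.69 (SE 0.244). FIT3 had 2151, 3312 and 2729 CPM with LF, against 959, 3748 and 2069 CPM in control (0.46), and FIT1 had 0.34.

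The siderophore transporters had the same shape. ARN2 had 929, 1342 and 1043 CPM with LF, against 402, 1537 and 833 CPM in control (log2 fold change 0.44). ENB1, the enterobactin transporter, had 0.33 and was higher in all 3 pairs, ARN1 had 0.25, and SIT1, the ferrioxamine transporter, had 0.20. The fold changes of ARN1, ARN2 and SIT1 did not reach an unadjusted p under 0.05.

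The reductive system, in which surface reductases free ferrous iron for a ferroxidase and a permease, was also mostly higher with LF. FET3, the ferroxidase, had 3792, 5305 and 4288 CPM with LF, against 2448, 4958 and 3665 CPM in control (0.32, SE 0.105). FTR1, the permease that works with it, had 1611, 2258 and 1772 CPM with LF, against 1056, 2106 and 1519 CPM in control (0.31, SE 0.0989). Both were higher in each pair, with pair ratios of 0.63, 0.10 and 0.23 for FET3 and 0.61, 0.10 and 0.22 for FTR1. Among the reductases FRE2 had 0.36, FRE3 0.31, FRE4 0.31, FRE5 0.26, the vacuolar FRE6 0.14 and FRE1 0.14. FET4, a low-affinity transporter of ferrous iron that also carries zinc, was the 1 member below 0 (-0.055).

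**Figure D2:**
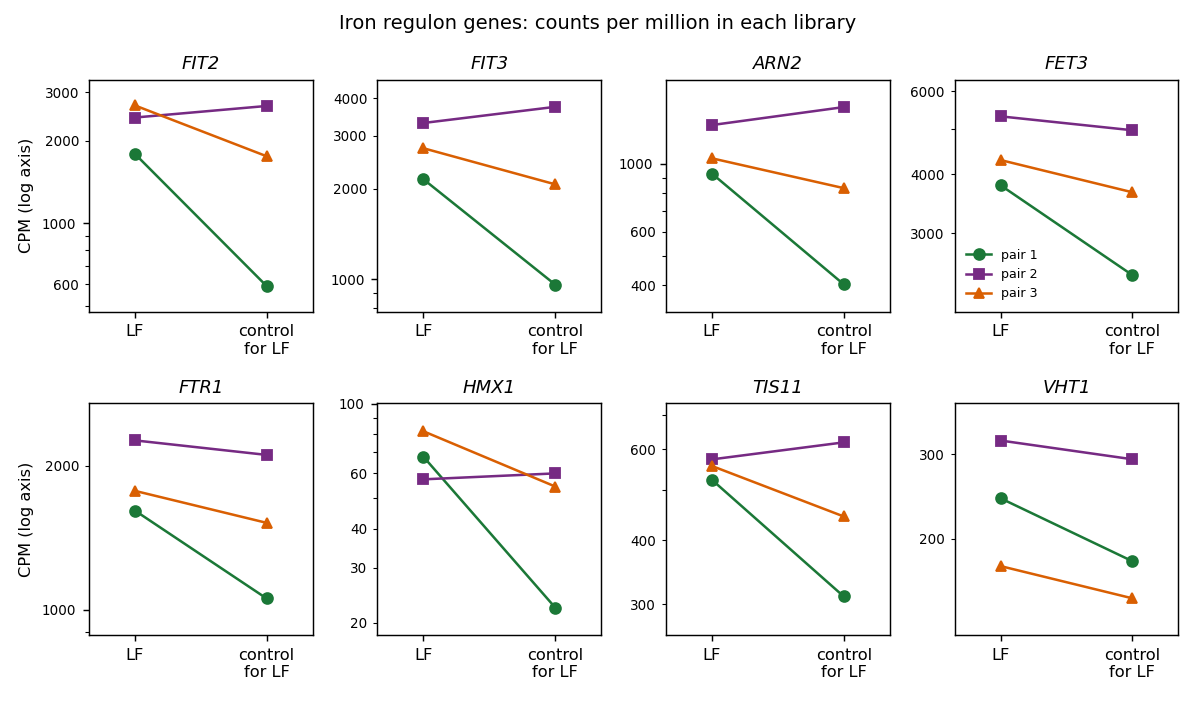
CPM on a log axis for 8 iron uptake, storage and sparing genes, with the LF library to the left and its control to the right, and a line joining each pair. FIT2 was higher with LF in pairs 1 and 3, with 1791 and 2688 CPM against 591 and 1755 CPM in control, but not in pair 2, with 2429 CPM against 2676 CPM.

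The genes that store or spare iron were mostly higher with LF as well, again in pairs 1 and 3. Of 10 such genes 5 were higher at an unadjusted p under 0.05 (against 4.32% of all genes) and 0 were lower, with a median of 0.173 and pair medians of 0.438, -0.0221 and 0.136. Without pair 1 the median was 0.044, and without pair 2 it was 0.295. HMX1, the heme oxygenase that recovers iron from heme, had 67.7, 57.4 and 81.7 CPM with LF, against 22.4, 60.0 and 54.4 CPM in control (log2 fold change 0.66, SE 0.219). TIS11, whose product speeds the decay of mRNAs for iron-using proteins, had 523, 574 and 557 CPM with LF, against 311, 619 and 444 CPM in control (0.32). MRS4, a mitochondrial iron carrier, had 0.25 and was higher in all 3 pairs. CCC1, which moves iron into the vacuole when iron is plentiful, was the 1 member below 0 (-0.092).

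The transporter genes VHT1 and BIO5 were higher in every pair, but both were named by a rule that takes only genes with the same sign in all pairs. Biotin import is known to replace biotin synthesis when iron is short, because biotin synthase holds iron-sulfur clusters. VHT1, the plasma membrane biotin transporter, had 243, 320 and 175 CPM with LF, against 180, 293 and 150 CPM in control (log2 fold change 0.26, SE 0.0584). BIO5, a transporter of biotin precursors, had 50.2, 67.2 and 46.6 CPM with LF, against 28.9, 62.8 and 34.6 CPM in control (0.42, SE 0.104). The likelihood ratio test called both (edgeR, Benjamini-Hochberg adjusted p = 0.037 for VHT1 and 0.0281 for BIO5), whereas the groups of both overlapped.

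The regulators themselves differed little. AFT1 had 193, 195 and 187 CPM with LF, against 169, 192 and 176 CPM in control (log2 fold change 0.099, 95% interval -0.0052 to 0.20), and AFT2 had 0.0067 (-0.098 to 0.11). YAP5, the activator of iron storage, had 0.13, and BOL2, which helps to inhibit Aft1p, had 0.17, both higher in all 3 pairs. MAC1, the copper-sensing activator, had 0.068, YAP1, the oxidative stress activator, -0.0046, and MSN4, a general stress activator, -0.0098. Of the regulators named, ZAP1 alone differed by more than 0.2.

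Several genes for enzymes that carry iron-sulfur clusters or heme had a fold change below 0. ACO1 and SDH1 were named for a small p and the same sign in all 3 pairs. SDH2 and SDH3, of the same enzyme as SDH1, were not named by that rule. The remaining genes were chosen after their values were seen, so no share of all such enzymes can be read from them. ACO1, the aconitase of the tricarboxylic acid (TCA) cycle, had 53.4, 53.1 and 117 CPM with LF, against 73.1, 58.0 and 160 CPM in control (log2 fold change -0.35, SE 0.0661), and was called by the likelihood ratio test of edgeR (Benjamini-Hochberg adjusted p = 0.00342). SDH1, SDH2 and SDH3, subunits of succinate dehydrogenase, had -0.27, -0.21 and -0.18. ACO1, SDH1 and SDH3 were lower in all 3 pairs, and SDH2 in pairs 1 and 3. Glutamate synthase GLT1 had pair ratios of -0.49, 0.17 and -0.25, the leucine synthesis enzyme LEU1 -0.42, 0.35 and -0.25, and cytochrome c CYC1 -0.35, 0.37 and -0.26. BIO2, the biotin synthase, had -0.38, 0.12 and -0.19. These 4 genes were thus lower with LF in pairs 1 and 3 and higher in pair 2, the reverse of most iron uptake genes, with fitted log2 fold changes of -0.19 for GLT1, -0.12 for LEU1, -0.11 for CYC1 and -0.17 for BIO2. Not all such genes lay below 0: the heme enzyme catalase A, encoded by CTA1, had 0.039. Among genes for the assembly of iron-sulfur clusters, 6 of 8 cytosolic and 11 of 19 mitochondrial ones were above 0. NAR1, of the cytosolic list, had 0.20 and was higher in all 3 pairs.

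**Figure D3:**
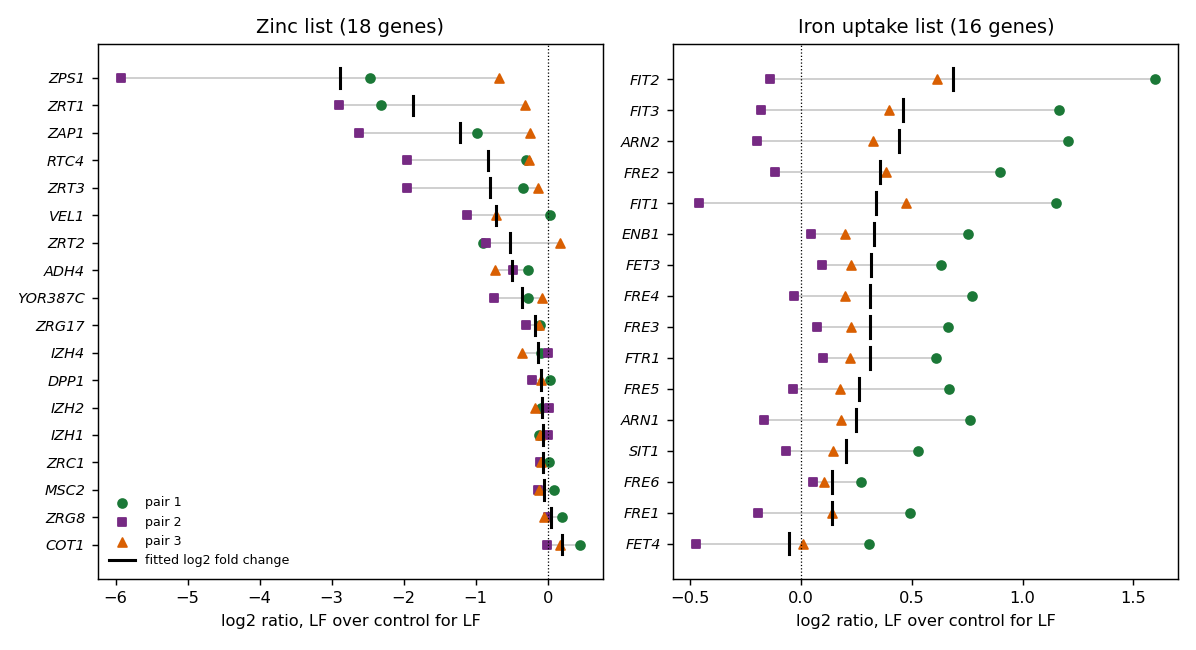
Log2 ratio of LF over control in each pair for the 18 zinc genes and the 16 iron uptake genes, ordered by the fitted log2 fold change (black bar). Pair 2 holds the lowest ratio in 8 of the 10 zinc genes with the lowest fold change and in all 16 iron uptake genes, and pair 1 holds the highest ratio in all 16 iron uptake genes.

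The ratios of the 3 pairs were only weakly related. Across the 5445 genes, which share their libraries and are not independent replicates, the log2 ratios of pairs 1 and 2 correlated at r = 0.138, of pairs 1 and 3 at 0.193 and of pairs 2 and 3 at 0.245. Over the 5394 genes left without the zinc, iron uptake, iron storage and sparing, and iron regulator lists, the values were -0.0841, 0.116 and 0.238. The mean log2 level of a gene's LF and control libraries had a median standard deviation between pairs of 0.133. This spread is one of level and not of the ratio, and the median size of a fold change was 0.043. The growth-related lists had pair medians of either sign. The 62 ribosome biogenesis genes had pair medians of -0.142, 0.147 and 0.0783 and the 133 ribosomal protein genes -0.101, 0.154 and 0.042, whereas the 22 general stress genes had 0.131, -0.204 and -0.0904. Of the ribosome biogenesis genes 0 reached an unadjusted p under 0.05. Of the 133 ribosomal protein genes 3 did and of the 22 general stress genes 2, all lower. Of all genes 3.36% were lower and 4.32% higher at that p.

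Most amino acid synthesis genes had a fold change slightly above 0. Of 44 genes 40 did, 11 were higher at an unadjusted p under 0.05 (against 4.32% of all genes) and 0 were lower, and 20 were higher in all 3 pairs (against 15.5% of all genes), with a median of 0.095. ARG1, argininosuccinate synthetase, had 395, 725 and 151 CPM with LF, against 338, 483 and 135 CPM in control (log2 fold change 0.33, SE 0.0758). HIS4, of histidine synthesis, had 1620.1, 2346.5 and 1189 CPM with LF, against 1493, 1869 and 1120.0 CPM in control (0.18). The pair medians of the list were 0.0172, 0.238 and 0.0384, so most of the difference came from pair 2.

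Most genes of mitochondrial energy metabolism had a fold change slightly below 0. Of 15 TCA cycle genes 14 had a fold change below 0 and 5 were lower at an unadjusted p under 0.05, against 3.36% of all genes (median -0.0808), and of 31 respiratory chain genes 22 were below 0, 7 were lower at that p and 13 were lower in all 3 pairs, against 13.7% of all genes (median -0.054). COX7, a subunit of cytochrome c oxidase, had 19.3, 21.0 and 24.7 CPM with LF, against 24.6, 25.5 and 29.5 CPM in control (log2 fold change -0.29, SE 0.0589), with 1 LF library just above the lowest control library. QCR9 and QCR8, of the cytochrome bc1 complex, had -0.24 and -0.20. In pair 3 the median of the respiratory chain list was -0.118, against -0.0405 in pair 1 and -0.0284 in pair 2.

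**Figure D4:**
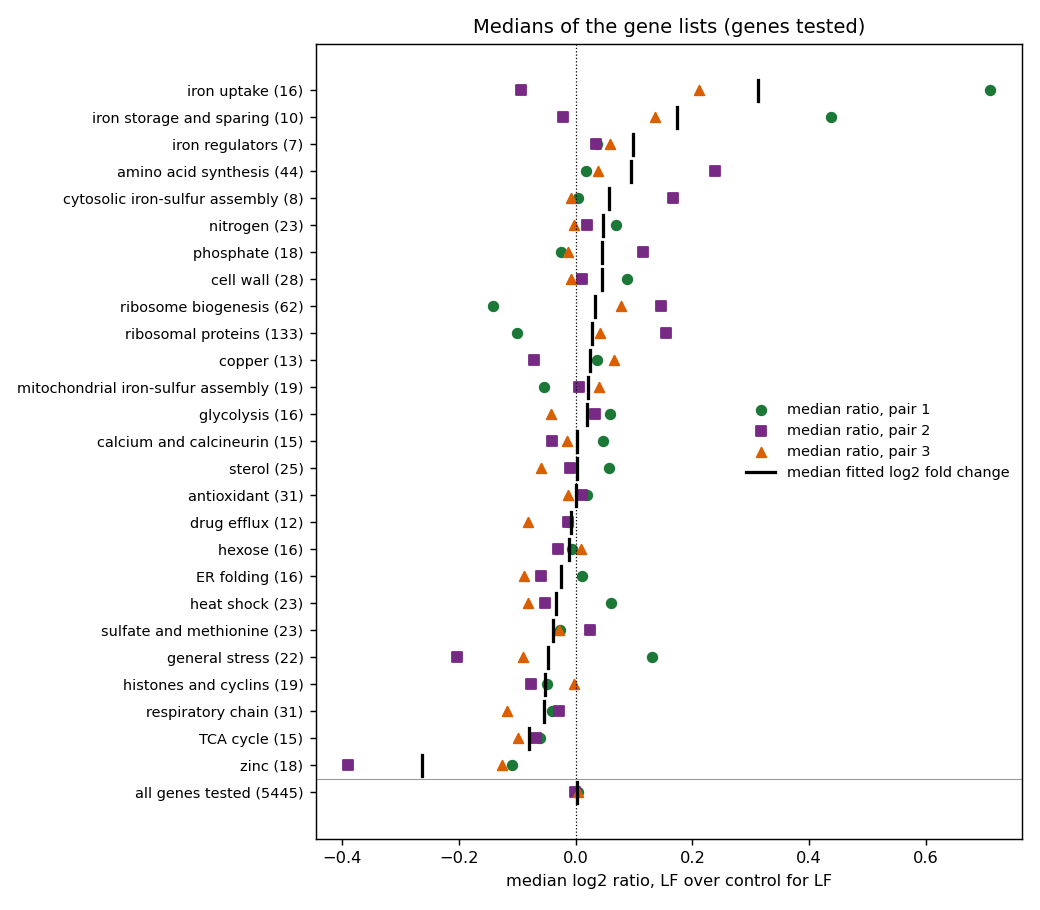
Median log2 ratio of LF over control in each pair (symbols) and median fitted log2 fold change (black bar) of 26 gene lists, with the number of genes tested in parentheses and all 5445 genes in the bottom line. The iron lists reach 0.711 in pair 1 and the zinc list -0.39 in pair 2, whereas the medians of all genes lie within 0.01 of 0.

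In the other lists at most 5 members reached an unadjusted p under 0.05, a threshold at which 3.36% of all genes were lower and 4.32% higher. Of the 16 folding genes of the endoplasmic reticulum 4 were lower, with SIL1, an exchange factor of the chaperone Kar2p, lowest at -0.17. Of 23 sulfate and methionine genes 4 were lower, with MHT1, an S-methylmethionine-homocysteine methyltransferase, at -0.29. Of 16 hexose genes 3 were lower and 1 higher, with the glucose transporter HXT4 at -0.25. CTR1, the copper transporter, was lower in all 3 pairs (-0.17) and was the 1 copper gene of 13 at that p. PHO12, an acid phosphatase, had 0.29, but 81.4% of its 75-base coding windows also occur elsewhere, and the sodium pump gene ENA1 had -0.24 with 86.9% shared. The heat shock (23), drug efflux (12) and ribosome biogenesis (62) lists had 0 members at that p, and the lists for antioxidant (31), sterol (25) and cell wall (28) genes had 1 each.

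Some genes outside the metal lists also had a small unadjusted p. They were named by a rule that takes only genes with the same sign in all 3 pairs, so that shared sign is not a result. The size of the ratio still differed between pairs for some, as for YFR052C-A (-0.08, -0.43 and -0.65). HMS2, a relative of the heat shock factors, had 143, 125 and 88.6 CPM with LF, against 120, 96.8 and 77.1 CPM in control (log2 fold change 0.27, SE 0.0489), and 43 bases of its coding sequence overlap another gene. CPP1, a tail-anchored protein of the plasma membrane, had 183, 191 and 223 CPM with LF, against 160, 172 and 178 CPM in control (0.22, SE 0.0473). PHD1, an activator of filamentous growth, had 0.20, IMP21, an activator of genes for ion homeostasis, 0.22, the methyltransferase gene TMT1 0.20, the prolyl isomerase gene ESS1 0.23 and PET122, needed to translate a mitochondrial mRNA, 0.27. ESS1 had 48.1, 52.1 and 55.5 CPM with LF, against 41.5, 42.0 and 49.7 CPM in control. Among the lower genes, MRA1, a small protein of respiratory complex assembly, had -0.30, and the uncharacterised YFR052C-A and YHR050W-A had -0.41 and -0.43.

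The likelihood ratio test called 20 genes, of which 5 were zinc genes (ZRT1, ZPS1, ZAP1, ADH4 and VEL1), 2 were TCA cycle genes (ACO1 and SDH1), and VHT1, ARG1, MHT1, HXT4 and COX7 came from 1 list each. The others were HMS2, CPP1, IMP21, PET122, BIO5, MRA1, YFR052C-A and YHR050W-A. Its calls were 7 higher and 13 lower. It was run as an alternative, and the same 20 genes had an adjusted p of 0.309 or more in the quasi-likelihood test of edgeR (Benjamini-Hochberg).

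The response to LF alone was then set against the response to AMB-LF, which holds the same LF dose for the same 50 min. The 2 experiments share no library and were sequenced on different instruments, so each response was taken within its own platform and their difference was tested in 1 fit over 5374 genes. The labels disagree on which untreated libraries belong to AMB-LF, since the growth protocol gives the durations of the 2 controls of that instrument the other way round from the sample labels, which were followed here. The AMB-LF response held 943 genes higher (17.5%) and 936 lower (17.4%) at an adjusted p under 0.05, and 525 genes were higher (9.77%) and 542 lower (10.1%) in the LF response than in the AMB-LF response. The experiments differ in AMB, in library kit and in instrument, which cannot be told apart in a difference between the responses.

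Zinc genes were lower in both responses. The list's median was -0.264 in the LF response, with none called, against -0.787 in the AMB-LF response, with 9 of 18 genes lower and 1 higher after adjustment. The difference was called for 7 genes less lowered by LF alone and 1 in the other direction, against 9.77% and 10.1% of all genes. VEL1 had a log2 fold change of -0.71 with LF and -5.47 with AMB-LF, a difference of 4.77 (SE 0.804). YOR387C had -0.36 with LF and -4.91 with AMB-LF (difference 4.55, SE 0.852), ADH4 -0.50 and -4.45 (3.95, SE 0.542), and RTC4 -0.83 and -3.27 (2.43, SE 0.667). ZRG17, DPP1 and MSC2 differed by 0.75, 0.54 and 0.39, and IZH4 by -0.65. The differences of ZRT1 (0.18, SE 1.30), ZPS1 (1.52, SE 2.27) and ZAP1 (0.96, SE 0.927) were not called, and these SEs leave room for differences of more than 1 log2 unit. Of the 7 calls, 3 were left without pair 1 of LF, 2 without pair 3 and 3 without replicate 1 of AMB-LF. All 6 untreated libraries of the other instrument were also taken as 1 control. Then 0 zinc genes were higher and 1 lower, against 196 and 278 of all 5374 genes. VEL1, YOR387C, ADH4 and RTC4 differed by 1.99, 2.12, 1.86 and 0.38 with none called. These 4 calls thus rest on which untreated libraries are set against AMB-LF.

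The difference between the responses was called for a few iron uptake genes. Of the 16, 3 were higher with LF alone and 1 lower, against 9.77% and 10.1% of all genes. FET4 had -0.055 with LF and -1.64 with AMB-LF (difference 1.58, SE 0.253), FRE1 0.14 and -1.09 (1.23, SE 0.301) and FRE4 0.31 and -0.62 (0.93, SE 0.298). SIT1 had 0.20 with LF and 0.99 with AMB-LF, a difference of -0.79 (SE 0.182). The list's median was 0.313 with LF and -0.0336 with AMB-LF. The differences of FIT2 (1.27, SE 0.651), FIT3 (1.46, SE 0.599) and ARN2 (1.04, SE 0.42) were not called. With the 6 untreated libraries as 1 control, 0 of the 16 were higher and 1 lower, against 196 and 278 of all 5374 genes.

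**Figure D5:**
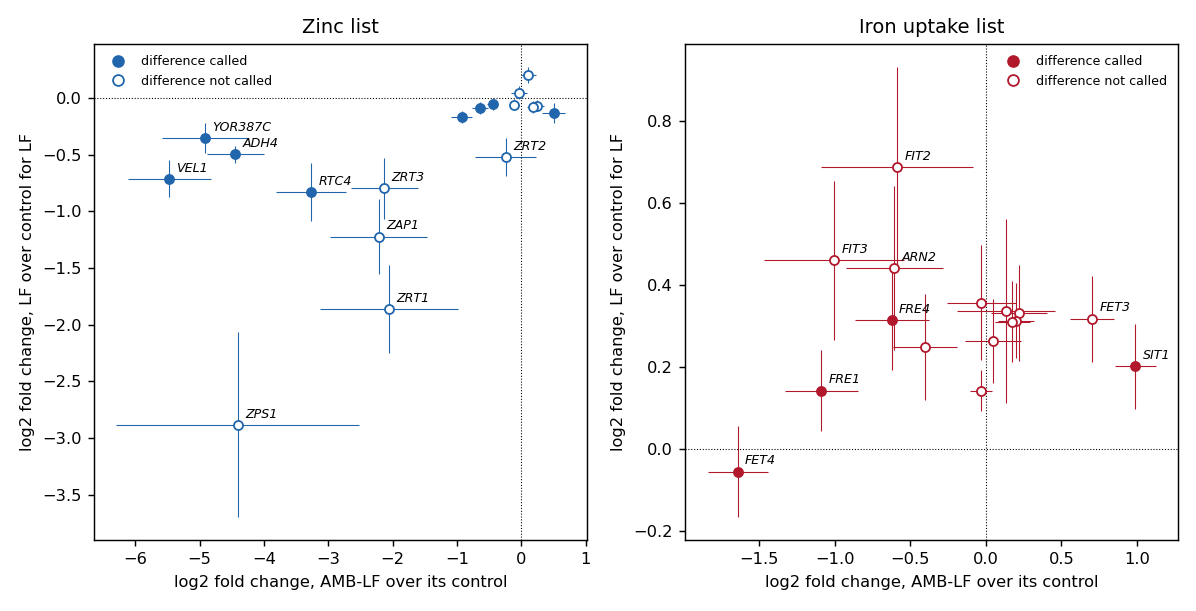
Log2 fold change of LF over its control (vertical axis) against that of AMB-LF over its control (horizontal axis) for the zinc and iron uptake genes, with bars of 1 SE and filled symbols where the difference between the responses was called. VEL1, YOR387C and ADH4 lie between -0.71 and -0.36 with LF and at or beyond -4.45 with AMB-LF.

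The 5 widest differences in the other direction were in nitrogen genes, which were higher with AMB-LF. MEP2, an ammonium permease, had a log2 fold change of 0.15 with LF and 4.73 with AMB-LF (difference -4.59, SE 0.379), and GAP1, the general amino acid permease, had 0.084 and 3.49 (-3.41, SE 0.301). The urea genes DUR1,2 (listed as DUR12) and DUR3 differed by -3.34 and -3.19, and the glutamine synthetase gene GLN1 by -3.17. GPG1, whose product takes part in glucose signalling, had -0.17 with LF and -2.80 with AMB-LF (2.63, SE 0.293). These 6 genes were also called with all 6 untreated libraries as 1 control. MSN4 had -0.0098 with LF and 0.65 with AMB-LF (-0.67, SE 0.138).

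The cell type was checked against mating type markers, since S288C is known as a haploid strain of the alpha type and the labels give only its name. All 7 markers of a cells were tested, with a sum of 1977 to 2721 CPM in the LF libraries and 1962 to 2523 CPM in control. STE2, the receptor found on a cells, had 688, 995 and 843 CPM with LF, against 663, 893 and 834 CPM in control. The 4 alpha markers summed to 80.3 to 92.3 CPM with LF and 79.0 to 88.0 CPM in control, nearly all of it SAG1, while STE3, the receptor of alpha cells, was between 5.09 and 8.21 CPM and MF(ALPHA)1, the main pheromone gene of alpha cells, between 0.141 and 0.419 CPM. These levels go against an alpha strain in both groups alike, and 0 of the 10 mating type markers tested reached an unadjusted p under 0.05. The 9 meiosis genes stayed at or below 37.3 CPM in every library. The RNA came from whole cultures, so less RNA per cell and fewer cells that express a gene cannot be told apart.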

How the data were processed

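The 6 LF and control libraries were made by the authors from 1 µg of total RNA with a stranded mRNA kit and sequenced as 75-base single reads on 1 NextSeq flow cell. The authors aligned reads with TopHat and Bowtie and counted them per coding sequence with HTSeq without regard to strand, leaving out reads on overlapping genes, so a gene and an antisense partner cannot be told apart. The submitters' processing notes name HTSeq 0.5.3p9 and build R64, and the study's methods name a later HTSeq for the LF libraries. The deposited values analysed are the authors' raw read counts per gene (6692 identifiers, of which 6008 were matched to RefSeq; the other 684 held 0.265% of the counts). The deposited table of log2 average expression per group, made by the authors, was examined but not used in any test. Deposited columns of the authors' fold changes, p-values and FDR were not used.

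A gene was tested where 3 or more of the 6 libraries reached 7 CPM, with edgeR 4.0.16 in R 4.3.3 (TMM scaling, glmQLFit and glmQLFTest, pair as a block, Benjamini-Hochberg adjustment over all genes tested, threshold 0.05). The pairing comes from the replicate numbers of the labels and the study's statement that replicates were done on different days. Pair ratios used log2 CPM with a prior count of 1. The difference between responses was a contrast in 1 edgeR fit of all 18 libraries, with lane and pair terms, over genes that reached 7 CPM in 3 or more NextSeq and 6 or more HiSeq libraries. DESeq2 1.42.0, the likelihood ratio test, other scalings and filters, no pairing and each pair left out were tried as alternatives. The scripts were tested on simulated data. Named genes were the regulators, 8 iron uptake genes, the 10 genes higher and 10 lower of smallest p with the same sign in all pairs, likelihood ratio calls, the widest member of each list, and the 5 widest differences between responses each way. The members and the 29 lists were chosen with earlier results of these data known.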

Additional observations from a re-analysis of the deposited data

Results flagged for a closer look

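The response to LF alone differed from the response to AMB-LF by the test of the difference itself (quasi-likelihood test of edgeR, Benjamini-Hochberg adjusted) for the 10 genes named for it. LF alone was the higher of the 2 for VEL1 (4.77 log2 units, adjusted p = 0.0011), YOR387C (4.55), ADH4 (3.95), GPG1 (2.63) and RTC4 (2.43). It was the lower for MEP2 (-4.59), GAP1 (-3.41), DUR1,2 (-3.34), DUR3 (-3.19) and GLN1 (-3.17). Without pair 1 or pair 3 of LF, without replicate 1 of AMB-LF, or with no terms for pair and lane, RTC4 was not called. With all 6 untreated HiSeq libraries as 1 control, the differences of VEL1 (1.99, adjusted p = 0.639), YOR387C (2.12, 0.559), ADH4 (1.86, 0.52) and RTC4 (0.38, 0.902) were not called in the same test of edgeR.

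The deposited table of group averages holds a column labelled LF and one labelled control for LF, neither of which any comparison uses. Over 5363 genes the LF column differs from the column labelled AMB by at most 0.008 log2 units, and the control for LF column differs from that labelled control for AMB by at most 0.007. Against log2 averages made from the counts, the LF column lies at a median distance of 0.388 from the LF libraries and 0.009 from the AMB libraries, and the control for LF column at 0.291 from the control for LF libraries and 0.0095 from those of control for AMB. ZRT1 stands at 10.00 in the LF column, against 9.36 from the LF counts. The cause was not tested.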

How the results depend on the processing

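The quasi-likelihood test of edgeR called 0 of 5445 genes, and 0 were called with RLE scaling, without a filter on low counts, with filterByExpr, or with all 18 libraries in 1 fit (chosen after seeing the data). Without the replicate block 0 genes were called either way and 6 were higher and 2 lower at an unadjusted p under 0.05, against 235 and 183 with it. The likelihood ratio test called 7 higher and 13 lower. DESeq2 called 1 lower, with 119 higher and 70 lower unadjusted. With library size alone as scaling 1 was lower, and the unadjusted counts were 144 higher and 281 lower. The fit of 18 libraries gave 81 and 57. With 1 pair left out, calls ran from 0 to 125 higher and from 2 to 62 lower, and unadjusted counts from 118 to 467 higher and from 93 to 308 lower. The fit without pair 1 had an infinite prior degree of freedom, so that genes at 1 level shared 1 spread; 18 of its 187 calls were among the 20 of the likelihood ratio test, as were 8 of the 31 without pair 2. With 1 pair left out, FRE1 ran from -0.028 (without pair 1) to 0.31, EFG1 from -0.20 to 0.015 (without pair 1) and MSN4 from -0.074 to 0.084 (without pair 2) log2 units, which changed sign against the full fit.

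For the difference from AMB-LF, 229 genes were higher and 267 lower without replicate block and lane, 834 were higher and 386 lower with library size alone, and 196 were higher and 278 lower with the 6 untreated HiSeq libraries as 1 control. Leaving out 1 library or pair gave 168 to 594 higher and 251 to 668 lower. Each gene had 2 residual degrees of freedom from 3 pairs, to which the fit added 7.82 prior degrees of freedom taken from all genes. On that basis the median 95% interval spanned 0.117 log2 units to either side.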

Other observations

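Genes that carry the elements in their promoters were also taken without those on the zinc, iron uptake, and iron storage and sparing lists. Genes of the iron regulator, copper and iron-sulfur assembly lists stayed in. The genes so taken gave smaller shares than the zinc and iron uptake lists, in the same directions. Of 101 such genes tested with the zinc element at up to 1 mismatch, 12 were lower (11.9%) and 2 higher (1.98%) at an unadjusted p under 0.05, against 3.18% lower and 4.36% higher of the 5371 genes tested that have a promoter window. Of 106 such genes with the Aft1p core, 8 were higher (7.55%) and 3 lower (2.83%). Their median log2 fold changes were -0.00511 and 0.0274, against 0.00212 for all, so most of these genes did not differ.

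The exact zinc element stands before 9 genes, 6 of them off the zinc list. MCD4, an enzyme of glycosylphosphatidylinositol anchor synthesis, had 116, 98.2 and 132 CPM with LF, against 117, 134 and 162 CPM in control (log2 fold change -0.25, unadjusted p = 0.00549 by edgeR's quasi-likelihood test). TEX1, an mRNA export factor that shares its upstream region with RTC4, had 54.1, 50.9 and 69.0 CPM with LF, against 57.4, 75.7 and 70.9 CPM in control (-0.23). The other 4, SDH8, PAN1, PCD1 and MRX15, had between -0.07 and 0.08. These genes were chosen after their values were seen.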
